A study of Homo sapiens with 6 samples.

Results

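The 54 genes described here encode cytochrome P450 enzymes (CYP genes). They were taken from the 27685 genes of the deposited count table by symbol, as CYP followed by a family number, a subfamily letter and a member number. Rows described as pseudogenes and CYP51A1, a sterol synthesis enzyme, were left out. The 54 genes fell into 16 families, of which CYP2 with 16 genes and CYP4 with 12 were the largest. By the role groups used here, 18 genes act mainly on drugs and other foreign compounds, 14 on fatty acids and eicosanoids, 6 on bile acids and oxysterols, 6 in steroid hormone synthesis, 3 on vitamin A and 3 on vitamin D, and 4 have an unsettled or other role.

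Cytochromes P450 are haem enzymes that insert an oxygen atom into small lipophilic molecules with electrons from partner proteins. Those of the endoplasmic reticulum take electrons from P450 oxidoreductase (POR) and cytochrome b5, and those of mitochondria from ferredoxin and its reductase. In the intestine, P450s of the absorptive cells act on swallowed drugs and toxins before these reach the liver, and many of their genes are switched on by the receptors AHR, PXR, CAR and VDR.

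RNA came from Caco-2, an established line of human colorectal tumour cells that acquire traits of absorptive enterocytes in culture. Libraries labelled FABP1 antisense (3) came from Caco-2 cells given an antisense sequence against FABP1, which encodes a fatty acid carrier of liver and gut cytosol, and vector control libraries (3) from Caco-2 cells transfected with empty pcDNA3. PolyA RNA was sequenced, and libraries are called 2, 3 and 4 after the numbers in the column headers. The number of transfected lines or clones behind each group is not stated, so line and construct cannot be told apart. No source states separate cultures within a group, so the p-values reflect the spread of these libraries only, and that spread may be technical.

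The targeted gene, FABP1, showed no fall under its antisense label. It had 134, 147 and 122 CPM (read counts per 1000000 of normalized library size) in the antisense-labelled libraries 2, 3 and 4, against 138, 102 and 121 CPM in the vector control libraries. The groups overlapped, and the log2 fold change of 0.16 (SE 0.12) did not pass the threshold of 0.05 (edgeR quasi-likelihood test, Benjamini-Hochberg adjustment, adjusted p = 0.268). Every direction below is therefore that of libraries with this label. Whether reads were assigned by strand is not stated, so transcripts of FABP1 and of its antisense construct cannot be told apart, nor can a CYP gene and an antisense partner. Total counts ran from 40351394 to 57979037 per library, and 3 counts over a group amounted to 0.0211 CPM in the antisense-labelled group and 0.0212 CPM in the vector control. Counts of higher and lower markers stand beside 27.7% higher and 27.3% lower over all tested genes. Of 12 enterocyte markers 11 were tested, with 6 higher and 2 lower. They summed to 16489 to 19385 CPM in the antisense-labelled libraries and 14663 to 17977 CPM in the vector control. Most of that sum was KRT8, which did not pass. LGALS4 (27.3-fold) and KRT20 (9.02-fold) were among the 6 higher, and KRT19 (1.42-fold) and VIL1 (1.15-fold) were the 2 lower. Of 12 hepatocyte markers 8 were tested, with 2 higher, 4 lower and CYP8B1 at 0. They summed to 1581 to 1768 CPM in the antisense-labelled libraries and 2625 to 2934 CPM in the vector control. Most of that sum was SERPINA1, lower at 1239 CPM in the antisense-labelled libraries and 2251 CPM in the vector control. The 2 higher genes were CPS1 (16.4-fold) and FGB (4.92-fold), so these markers did not move as a group. Goblet cell markers (3 of 4 tested, all 3 higher, SPDEF at 0) summed to 16.8 to 20.8 CPM in the antisense-labelled libraries and 1.32 to 1.62 CPM in the vector control. Of other cell types, fibroblast markers (5 tested, 2 higher, 2 lower) had COL1A2 and DCN at 0. LUM stood at 18.1 CPM in the antisense-labelled libraries and 0.133 CPM in the vector control. PDGFRA went the other way, at 0.386 CPM in the antisense-labelled libraries and 22.7 CPM in the vector control. Leukocyte markers (3 tested) had PTPRC at 0, CSF1R (12.2-fold) and LYZ (2.06-fold) higher and CD14 (5.20-fold) lower. Endothelial markers (2 tested, both higher) had CDH5 and KDR at 0, and of 4 keratinocyte markers 0 could be tested. MUC2 (goblet) and VWF (endothelial) reached the level of the filter on low counts in the antisense-labelled libraries only. SLC10A1, among the lower hepatocyte markers, reached it in the vector control libraries only. As tested genes, MUC2, VWF and SLC10A1 had to differ in level. The part of these cell states in the CYP differences was not tested. In bulk RNA a change in the share of cells of one kind and a change in RNA per cell cannot be told apart.

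Most CYP genes were silent or nearly so. No read was counted in any library for 15 of the 54 genes, among them the bile acid enzymes CYP7A1, CYP7B1 and CYP8B1, the adrenal enzymes CYP11B1, CYP11B2 and CYP21A2, the fatty acid hydroxylases CYP4A11 and CYP4A22, and CYP1A2, a caffeine-oxidizing enzyme of liver. The others at 0 were CYP2A13, CYP4F8, CYP4F22, CYP4Z1, CYP39A1 and CYP46A1. A further 17 had counts below the filter on low values, and 22 were tested.

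Of the 22 tested CYP genes, 12 were higher in the antisense-labelled libraries (54.5%), 5 were lower (22.7%) and 5 did not pass (edgeR quasi-likelihood test, Benjamini-Hochberg adjustment, threshold 0.05). Over all 14640 tested genes 27.7% were higher and 27.3% lower. The groups did not overlap for 19 of the 22 (86.4%), against 62.7% of all tested genes. At least a 2-fold rise was found for 8 of the 22 CYP genes, against 8.80% of all tested genes, and at least a 4-fold rise for 7, against 4.69%. A fall of at least 2-fold was found for 1, against 6.12% of all tested genes. These shares cannot be read as a property of CYP genes. Of the 12 higher genes, 5 (CYP11A1, CYP2B6, CYP3A4 and CYP4F12 among them) reached the filter's level in the antisense-labelled libraries and in 0 of the vector control libraries. They therefore had to differ in level, though this alone does not make a gene pass the test. CYP24A1, one of the 5 lower genes, and CYP2D6, which did not pass, reached the filter's level in the vector control libraries only. CYP2J2 reached it in all 3 antisense-labelled and 2 of 3 vector control libraries. Of the 14 CYP genes averaging at least 1 CPM over all 6 libraries, 7 were higher, 4 lower and 3 did not pass. CYP4F12 and CYP2J2, with 0 and 2 vector control libraries at the filter's level, are among those 7, and without them 5 were higher. Among the 12736 genes at that level 28.1% were higher and 29.4% lower. Summed over all 54 genes, CYP reads came to 349, 375 and 342 CPM in antisense-labelled libraries 2, 3 and 4, against 280, 263 and 280 CPM in vector control libraries 2, 3 and 4. The sums did not overlap, and the same 5 genes made up 84.5 to 85.7% of them in the antisense-labelled libraries and 85.5 to 86.6% in the vector control.

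**Figure D1:**
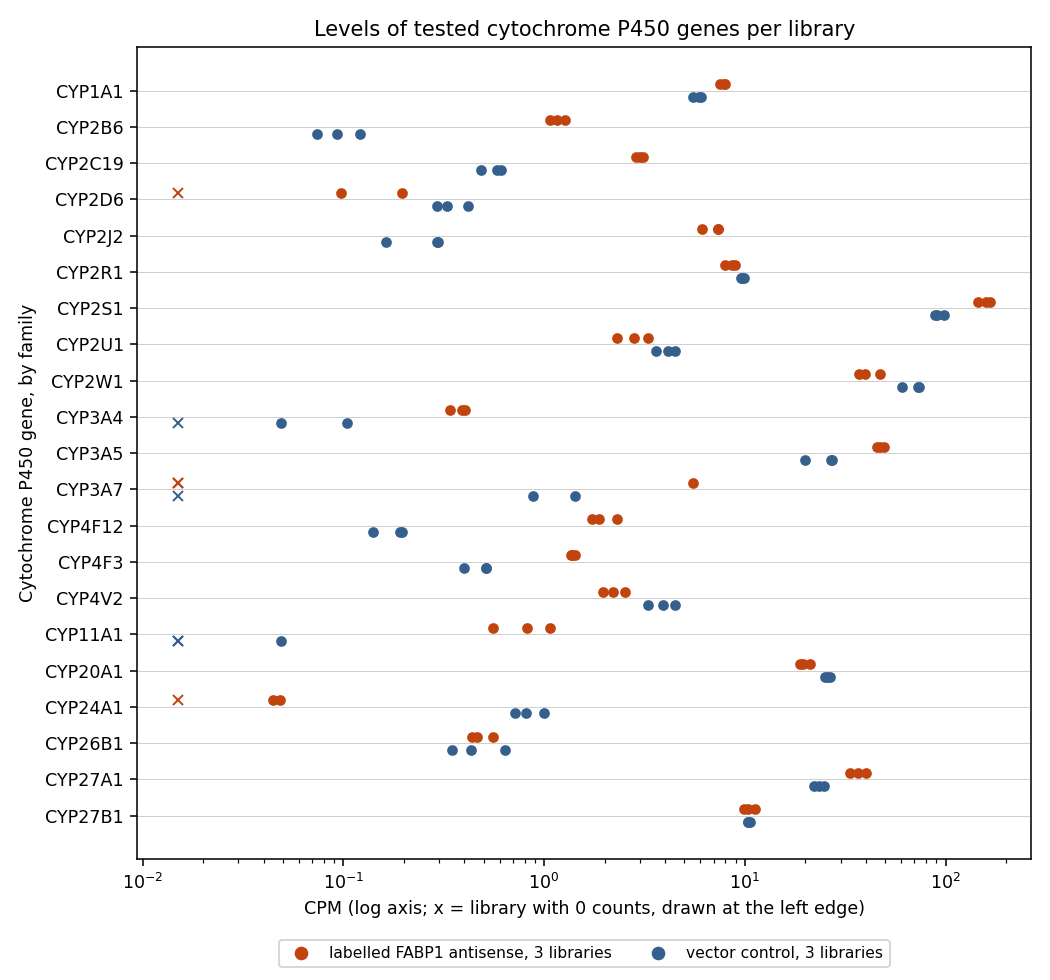
Levels of tested CYP genes in every library, in CPM on a log axis, with libraries labelled FABP1 antisense and vector control libraries as separate colours. CYP2S1 stands highest at 145 to 167 CPM in the antisense-labelled libraries and 88.6 to 97.9 CPM in the vector control, and CYP2J2 shows a wide gap between the groups.

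Those 5 genes were CYP2S1, CYP2W1, CYP27A1, CYP3A5 and CYP20A1, ranked on CPM per kilobase of their longest reference transcript. CYP2S1, a P450 of epithelia outside the liver, stood at 56.5 ± 3.998 CPM per kilobase in the antisense-labelled libraries and 33.3 ± 1.73 in the vector control (SD, n = 3 each). CYP2W1, known from fetal gut and colorectal tumours, stood at 17.9 ± 2.24 CPM per kilobase in the antisense-labelled libraries and 30.05 ± 3.24 in the vector control. In the vector control the library values of CYP2S1 and CYP2W1 overlapped, while in the antisense-labelled libraries CYP2S1 lay above all others. CYP27A1 (16.1 ± 1.43), CYP3A5 (14.2 ± 0.537) and CYP20A1 (10.2 ± 0.623) followed in the antisense-labelled libraries, against 10.3 ± 0.583, 7.41 ± 1.24 and 13.3 ± 0.383 CPM per kilobase in the vector control. In the antisense-labelled libraries CYP2W1 overlapped CYP27A1, and CYP27A1 overlapped CYP3A5. Next came CYP27B1 at 4.15 CPM per kilobase in the antisense-labelled libraries and 4.102 in the vector control, and CYP2R1 at 3.802 in the antisense-labelled libraries and 4.34 in the vector control. These overlapped in the antisense-labelled libraries, and in the vector control CYP2R1 lay above CYP27B1 in all 3 libraries.

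CYP2S1 had 159, 167 and 145 CPM in antisense-labelled libraries 2, 3 and 4, against 91.1, 88.6 and 97.9 CPM in the vector control libraries. All 3 antisense-labelled values were above all 3 controls, and it rose 1.70-fold (log2 fold change 0.76, SE 0.08; edgeR quasi-likelihood test, Benjamini-Hochberg adjustment, adjusted p = 5.89e-05). CYP2W1 went the other way, with 37.1, 47.0 and 39.6 CPM in the antisense-labelled libraries, against 73.1, 60.6 and 74.0 CPM in the vector control. It fell by 0.75 on the log2 scale (SE 0.11; edgeR quasi-likelihood test, Benjamini-Hochberg adjustment, adjusted p = 0.000578), again without overlap. Their shares of all CYP reads moved apart: CYP2S1 held 42.5 to 45.5% in the antisense-labelled libraries and 32.5 to 35.0% in the vector control, and CYP2W1 held 10.6 to 12.5% in the antisense-labelled libraries and 23.1 to 26.5% in the vector control. CYP20A1, a P450 with no settled substrate, had 19.4, 18.8 and 21.2 CPM in the antisense-labelled libraries, against 25.2, 26.7 and 25.8 CPM in the vector control. The groups did not overlap, and it fell by 0.39 on the log2 scale (SE 0.08; edgeR quasi-likelihood test, Benjamini-Hochberg adjustment, adjusted p = 0.00306).

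Among the 18 drug and xenobiotic P450s, 8 were tested, of which 6 were higher, none was lower and 2 did not pass, against 27.7% higher and 27.3% lower over all tested genes. Of the 6 higher genes, 3 (CYP2B6 and CYP3A4 among them) reached the filter's level in the antisense-labelled libraries only. The 18 genes summed to 61.4 to 65.2 CPM in the antisense-labelled libraries and 27.6 to 35.8 CPM in the vector control. Most of this was CYP3A5, the CYP3A enzyme found widely outside the liver, which had 47.3, 45.5 and 49.1 CPM in the antisense-labelled libraries, against 26.9, 27.1 and 19.8 CPM in the vector control. Values did not overlap, and CYP3A5 rose 1.92-fold (log2 fold change 0.94, SE 0.12; edgeR quasi-likelihood test, Benjamini-Hochberg adjustment, adjusted p = 0.000222). CYP3A4, the main drug-oxidizing P450 of adult liver and small intestine, was close to the detection limit at 0.389, 0.403 and 0.338 CPM in the antisense-labelled libraries, against 0.104, 0.0490 and 0 CPM in the vector control. It rose (log2 fold change 2.70, SE 0.66; edgeR quasi-likelihood test, Benjamini-Hochberg adjustment, adjusted p = 0.00739). The fitted value was 3.82 without vector control library 2 and 2.19 without vector control library 4. CYP3A4 shares 12.1% of its 50-base stretches with other gene models, so its few reads could partly belong elsewhere, and CYP3A43 had 0 counts in the antisense-labelled group and 2 in the vector control.

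CYP3A7, the CYP3A enzyme of fetal liver, has a second row in the table for transcripts that read through into the neighbouring pseudogene, and 75.3% of its 50-base stretches lie in that model too. Each library had reads in only 1 of the rows. The CYP3A7 row held 0, 246 and 0 reads in antisense-labelled libraries 2, 3 and 4, against 82, 0 and 38 in the vector control, and the readthrough row held 207, 0 and 233 reads in the antisense-labelled libraries, against 0, 51 and 0 in the vector control. By row alone the groups overlapped, and neither row passed (edgeR quasi-likelihood test, Benjamini-Hochberg adjustment, adjusted p = 0.548 for CYP3A7 and 0.123 for the readthrough). Without antisense-labelled library 3, the CYP3A7 row alone came out lower (log2 fold change -8.23, adjusted p = 0.0402). Summed, a step chosen after seeing the data, the rows gave 5.03, 5.50 and 4.14 CPM in the antisense-labelled libraries, against 1.42, 1.25 and 0.885 CPM in the vector control. The sums did not overlap and were higher in the antisense-labelled libraries (log2 fold change 2.03, SE 0.21; edgeR quasi-likelihood test, Benjamini-Hochberg adjustment, adjusted p = 6.77e-05).

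**Figure D2:**
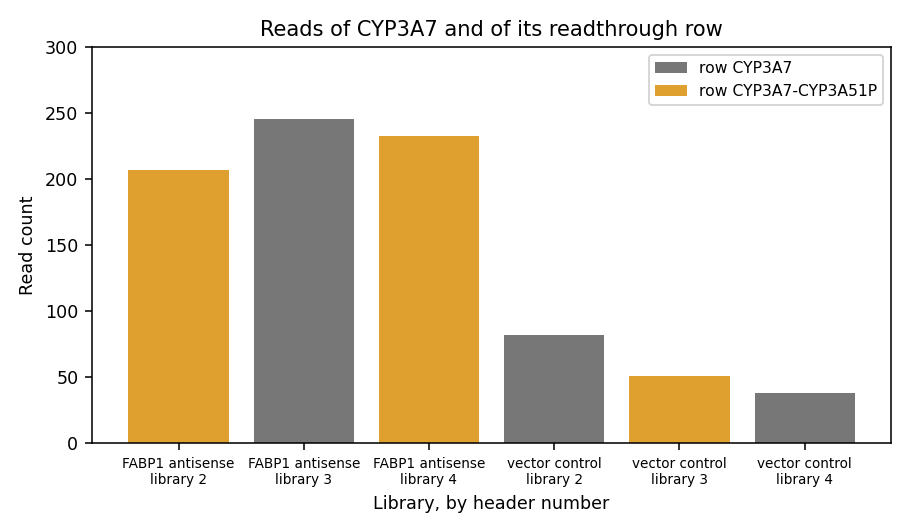
Read counts of the CYP3A7 row (grey) and of its readthrough row (orange) in each library. Every library has reads in 1 row only, and the stacked bars reach 207 to 246 in the antisense-labelled libraries and 38 to 82 in the vector control.

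The start windows of CYP3A5, CYP3A7 and CYP3A4 are shown because the 3 neighbouring genes stand at very different levels. Windows are from RefSeq (GRCh38.p14), 250 bases before to 50 after the start, on the minus strand at chr7:99679947-99680246, chr7:99735147-99735446 and chr7:99784135-99784434. Capitals mark every match on either strand to 4 motifs. The TATA box was searched as TATAAA. The GC box was searched as GGGCGG. The core of the dioxin response element was searched as GCGTG. The nuclear receptor half-site was searched as AGGTCA.
CYP3A5: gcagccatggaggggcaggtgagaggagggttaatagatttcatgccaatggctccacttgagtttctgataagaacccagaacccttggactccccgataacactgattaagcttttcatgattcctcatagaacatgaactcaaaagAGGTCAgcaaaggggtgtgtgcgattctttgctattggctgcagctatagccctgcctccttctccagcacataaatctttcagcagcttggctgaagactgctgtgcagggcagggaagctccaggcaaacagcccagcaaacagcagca
CYP3A7: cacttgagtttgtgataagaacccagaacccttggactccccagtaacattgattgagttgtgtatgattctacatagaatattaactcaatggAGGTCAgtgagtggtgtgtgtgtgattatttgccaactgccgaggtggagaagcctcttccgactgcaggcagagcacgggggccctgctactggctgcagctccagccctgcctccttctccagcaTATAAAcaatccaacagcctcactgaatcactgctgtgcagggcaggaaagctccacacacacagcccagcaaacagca
CYP3A4: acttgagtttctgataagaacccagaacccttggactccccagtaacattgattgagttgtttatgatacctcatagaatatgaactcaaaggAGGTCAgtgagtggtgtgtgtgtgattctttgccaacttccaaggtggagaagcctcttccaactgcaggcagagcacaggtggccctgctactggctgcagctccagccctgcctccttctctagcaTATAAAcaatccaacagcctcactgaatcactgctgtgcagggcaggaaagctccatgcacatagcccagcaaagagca
CYP3A4 and CYP3A7 were identical at 94.3% of 299 aligned bases, and CYP3A4 and CYP3A5 at 85.9% of 241. All 3 hold the half-site. The TATA box lies 29 bases before the start of CYP3A4 and of CYP3A7, and the letters TATAAA are not in the CYP3A5 window. Of all 35116 RefSeq windows 13.8% hold AGGTCA and 11.5% hold TATAAA, and a match is a description of letters only.

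The CYP2C genes oxidize many prescribed drugs. CYP2C19, which activates clopidogrel and clears omeprazole, had 3.01, 2.88 and 3.11 CPM in the antisense-labelled libraries, against 0.486, 0.612 and 0.582 CPM in the vector control. It rose 5.37-fold without overlap (log2 fold change 2.43, SE 0.20; edgeR quasi-likelihood test, Benjamini-Hochberg adjustment, adjusted p = 1.73e-05). Of its 50-base stretches 83.2% occur in other models, mainly in one that is not a row of the table. Both below the filter, CYP2C18 had 40 counts in the antisense-labelled group and 4 in the vector control, and CYP2C8 had 4 in the antisense-labelled group, all in library 3, and 0 in the vector control. Of the 50-base stretches of CYP2C18, 37.3% occur in other models. The start window of CYP2C19 (chr10:94762431-94762730, plus strand) is printed beside its values and holds TATAAA.
CYP2C19: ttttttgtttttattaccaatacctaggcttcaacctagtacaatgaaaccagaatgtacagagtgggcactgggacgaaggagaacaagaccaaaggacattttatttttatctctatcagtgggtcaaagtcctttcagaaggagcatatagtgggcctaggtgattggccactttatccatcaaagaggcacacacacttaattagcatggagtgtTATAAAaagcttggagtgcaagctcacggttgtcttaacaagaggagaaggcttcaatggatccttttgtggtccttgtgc

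CYP2B6, which oxidizes efavirenz and bupropion and is a classical target of the receptor CAR, had 1.07, 1.27 and 1.16 CPM in the antisense-labelled libraries, against 0.122, 0.0735 and 0.0932 CPM in the vector control. The groups lay far apart, with an 11.6-fold rise (log2 fold change 3.54, SE 0.34; edgeR quasi-likelihood test, Benjamini-Hochberg adjustment, adjusted p = 4.36e-05), and 10.1% of its 50-base stretches are shared with other gene models, mostly the pseudogene CYP2B7P. CYP1A1, the aromatic hydrocarbon hydroxylase induced through AHR, had 7.87, 7.51 and 7.999 CPM in the antisense-labelled libraries, against 6.03, 5.90 and 5.50 CPM in the vector control. That difference was small but without overlap (log2 fold change 0.42, SE 0.10; edgeR quasi-likelihood test, Benjamini-Hochberg adjustment, adjusted p = 0.00677). CYP1B1, the other AHR-induced family member with reads, had 14 counts in the antisense-labelled group and 0 in the vector control. CYP2D6, which oxidizes codeine and many antidepressants, had 0.0971, 0 and 0.196 CPM in the antisense-labelled libraries, against 0.330, 0.294 and 0.419 CPM in the vector control. The log2 fold change of -1.73 (SE 0.70) did not pass (edgeR quasi-likelihood test, Benjamini-Hochberg adjustment, adjusted p = 0.0645), and 42.2% of its 50-base stretches are shared, mostly with CYP2D7. The groups did not overlap, but CYP2D6 reached the filter's level in the vector control libraries only, so as a tested gene it had to differ in level. Below the filter, CYP2E1 had 18 counts in the antisense-labelled group and 8 in the vector control. CYP2A6, the nicotine oxidase, had 9 in the antisense-labelled group, all in library 4, and 6 in the vector control. CYP2A7 had 2 counts in the antisense-labelled group and 0 in the vector control. CYP2F1 had 0 in the antisense-labelled group and 5 in the vector control, all in library 4.

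**Figure D3:**
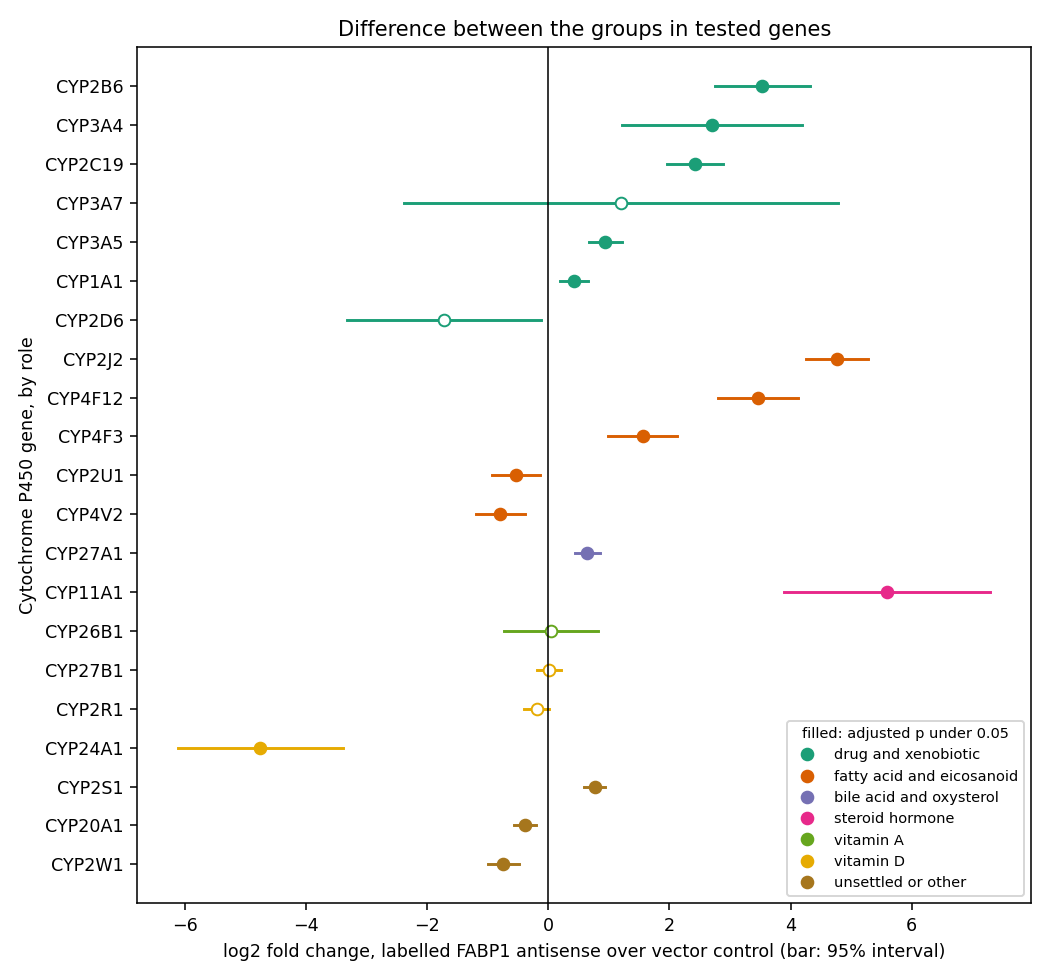
Log2 fold changes of tested CYP genes, libraries labelled FABP1 antisense over vector control, with its 95% interval; filled and open points mark genes that did and did not pass the test. Higher genes reach 4.76 for CYP2J2 and 5.60 for CYP11A1, and CYP24A1 is lowest at -4.76.

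Of the 14 fatty acid and eicosanoid P450s, 5 were tested, with 3 higher and 2 lower, against 27.7% higher and 27.3% lower over all tested genes. CYP2J2, an epoxygenase of arachidonic acid expressed in heart and small intestine, had 6.14, 7.38 and 7.32 CPM in the antisense-labelled libraries, against 0.295, 0.294 and 0.163 CPM in the vector control. It rose 27.2-fold (log2 fold change 4.76, SE 0.23; edgeR quasi-likelihood test, Benjamini-Hochberg adjustment, adjusted p = 5.49e-07), with no overlap and none of its 50-base stretches shared. CYP2U1, a hydroxylase of long-chain fatty acids, had 3.30, 2.303 and 2.81 CPM in the antisense-labelled libraries, against 4.46, 3.60 and 4.12 CPM in the vector control. The groups lay close together without overlap, and it fell by 0.54 on the log2 scale (SE 0.18; edgeR quasi-likelihood test, Benjamini-Hochberg adjustment, adjusted p = 0.0281). The call did not survive when any 1 of antisense-labelled libraries 3 and 4 and vector control libraries 2 and 4 was left out (adjusted p up to 0.0949). CYP4V2, a fatty acid hydroxylase of the retina mutated in Bietti crystalline dystrophy, had 1.97, 2.21 and 2.52 CPM in the antisense-labelled libraries, against 4.46, 3.89 and 3.28 CPM in the vector control. It fell by 0.79 on the log2 scale without overlap (SE 0.18; edgeR quasi-likelihood test, Benjamini-Hochberg adjustment, adjusted p = 0.00506), and 7.68% of its 50-base stretches are shared with KLKB1.

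The CYP4F genes form a cluster on chromosome 19, and several encode hydroxylases of leukotriene B4 and other eicosanoids. CYP4F12 had 1.72, 2.303 and 1.87 CPM in the antisense-labelled libraries, against 0.191, 0.196 and 0.140 CPM in the vector control. It rose 10.99-fold without overlap (log2 fold change 3.46, SE 0.29; edgeR quasi-likelihood test, Benjamini-Hochberg adjustment, adjusted p = 1.74e-05). CYP4F3, the leukotriene B4 hydroxylase of neutrophils, had 1.38, 1.43 and 1.37 CPM in the antisense-labelled libraries, against 0.399, 0.514 and 0.512 CPM in the vector control. It too rose without overlap (log2 fold change 1.56, SE 0.25; edgeR quasi-likelihood test, Benjamini-Hochberg adjustment, adjusted p = 0.000824), and 9.88% of its 50-base stretches are shared. CYP4F2, below the filter, shares 17.6% of its 50-base stretches, mostly with CYP4F3, so its few reads could partly belong elsewhere. It had 13, 21 and 8 counts in the antisense-labelled libraries and 0 in every vector control library, at least 13.9-fold higher against 3 counts over the vector control group. CYP4B1 showed the reverse, with 0 counts in every antisense-labelled library, against 23, 8 and 4 in the vector control, at least 11.7-fold lower on the same floor. CYP4F11 had 9 counts in the antisense-labelled group and 2 in the vector control, and CYP4X1 had 0 in the antisense-labelled group and 2 in the vector control.

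Start windows of CYP2J2 (chr1:59926724-59927023, minus strand), CYP2U1 (chr4:107931299-107931598, plus strand) and CYP4V2 (chr4:186191317-186191616, plus strand) are printed to set the gene with the widest gap beside a pair of lower fatty acid hydroxylases, with capitals as above.
CYP2J2: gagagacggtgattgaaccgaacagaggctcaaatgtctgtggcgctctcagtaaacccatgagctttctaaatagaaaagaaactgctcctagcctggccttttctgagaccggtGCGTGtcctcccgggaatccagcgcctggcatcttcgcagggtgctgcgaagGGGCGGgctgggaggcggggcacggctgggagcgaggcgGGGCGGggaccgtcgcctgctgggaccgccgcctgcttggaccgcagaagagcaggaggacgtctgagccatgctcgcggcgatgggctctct
CYP2U1: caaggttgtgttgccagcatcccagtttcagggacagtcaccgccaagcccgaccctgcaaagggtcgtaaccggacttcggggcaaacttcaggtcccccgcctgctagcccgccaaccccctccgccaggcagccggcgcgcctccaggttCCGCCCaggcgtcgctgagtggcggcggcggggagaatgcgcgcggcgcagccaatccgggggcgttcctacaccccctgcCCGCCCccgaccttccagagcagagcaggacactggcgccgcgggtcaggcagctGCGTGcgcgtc
CYP4V2: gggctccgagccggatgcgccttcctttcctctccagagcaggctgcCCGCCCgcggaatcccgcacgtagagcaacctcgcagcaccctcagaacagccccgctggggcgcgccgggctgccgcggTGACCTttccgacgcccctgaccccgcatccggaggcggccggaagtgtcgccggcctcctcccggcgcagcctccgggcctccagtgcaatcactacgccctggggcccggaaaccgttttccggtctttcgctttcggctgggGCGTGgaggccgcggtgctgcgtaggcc
All 3 hold a GC box, as 45.0% of all windows do, and GCGTG, as 36.5% do. Of the 22 tested CYP genes 17 had a window. For 10 higher genes the median count of CG dinucleotides was 4 (0 to 29), and for 4 lower genes (CYP20A1, CYP2U1, CYP2W1 and CYP4V2) it was 31 (14 to 36), against 14 over all windows. TATAAA was in the windows of 4 of the 10 higher genes and of 0 of the 4 lower genes. The median G plus C content was 53.8% for the higher and 70.4% for the lower genes, against 58.7% over all windows. With so few genes these are descriptions without a test.

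**Figure D4:**
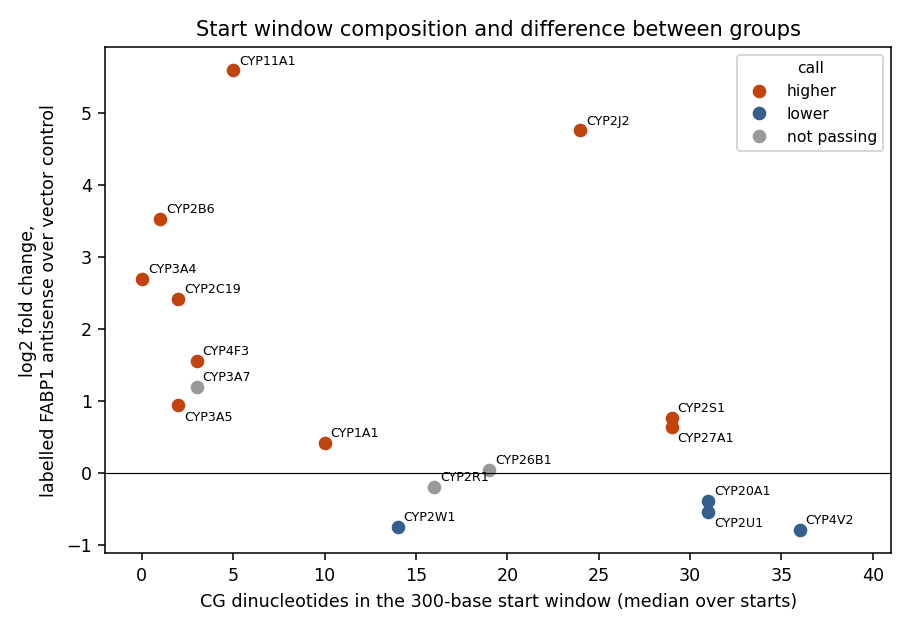
Number of CG dinucleotides in the RefSeq start window (horizontal axis) and log2 fold change, libraries labelled FABP1 antisense over vector control (vertical axis), for the 17 tested CYP genes with a window, coloured by call. The 4 lower genes have 14 to 36 CG dinucleotides, a range that higher genes with up to 29 also enter.

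Vitamin D enzymes did not move together. CYP24A1, which inactivates the hormone and is a classical target of its receptor VDR, had 2, 2 and 0 reads in antisense-labelled libraries 2, 3 and 4, against 41, 41 and 35 in the vector control. The groups lay far apart, and it fell by 4.76 on the log2 scale (SE 0.60; edgeR quasi-likelihood test, Benjamini-Hochberg adjustment, adjusted p = 0.000205). Without antisense-labelled library 4, the one with 0 reads, the log2 fold change was -4.10. CYP27B1, which makes the active hormone, had 11.3, 9.95 and 10.3 CPM in the antisense-labelled libraries, against 10.3, 10.6 and 10.3 CPM in the vector control. These overlapped, with a log2 fold change of 0.01 (95% interval -0.19 to 0.22). CYP2R1, the main liver enzyme of the preceding step, had 7.94, 8.61 and 8.94 CPM in the antisense-labelled libraries, against 9.88, 9.63 and 9.62 CPM in the vector control, without overlap but not past the test (log2 fold change -0.19, SE 0.09; edgeR quasi-likelihood test, Benjamini-Hochberg adjustment, adjusted p = 0.106). VDR itself stood at 82.7 ± 3.33 CPM in the antisense-labelled libraries and 21.2 ± 0.649 CPM in the vector control (SD, n = 3 each), so the receptor was higher (log2 fold change 1.96, SE 0.07) where CYP24A1 was lower. CYP24A1 reached the filter's level in the vector control libraries only, so as a tested gene it had to differ in level. Of 11 tested genes in the list of other vitamin D handling and target genes, 5 were higher, VDR among them and CLDN12 (0.66), a claudin, and 5 were lower, including the receptors CD14 (-2.38) and LRP2 (-0.90) and the sterol reductase DHCR7 (-0.57), all on the log2 scale. Of the 5 higher, CALB1 and GC reached the filter's level in the antisense-labelled libraries only and so had to differ in level. Over all tested genes 27.7% were higher and 27.3% lower.

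CYP27A1, the mitochondrial sterol hydroxylase that opens the acidic route of bile acid synthesis, was the only bile acid or oxysterol P450 with reads. It had 36.7, 40.0 and 33.5 CPM in the antisense-labelled libraries, against 23.4, 22.1 and 24.8 CPM in the vector control. It rose 1.56-fold without overlap (log2 fold change 0.65, SE 0.09; edgeR quasi-likelihood test, Benjamini-Hochberg adjustment, adjusted p = 0.000375). Among 10 tested other enzymes of bile acid and oxysterol metabolism, 2 were higher (SLC27A5, a bile acyl-CoA synthetase, 1.504, and AMACR, a racemase, 0.64) and 4 lower, including EPHX1 (-1.04), SLC27A2 (-0.55) and HSD17B4 (-0.29). Over all tested genes 27.7% were higher and 27.3% lower. CYP11A1, which cleaves the cholesterol side chain to begin steroid synthesis, had 0.559, 1.07 and 0.818 CPM in the antisense-labelled libraries, against 0, 0.0490 and 0 CPM in the vector control. That is 117 counts in the antisense-labelled group and 2 in the vector control, a ratio of 58.2 with a counting interval of 15.7 to 486, and it rose (edgeR quasi-likelihood test, Benjamini-Hochberg adjustment, adjusted p = 0.000298). The fitted log2 fold change of 5.60 ran from 4.94 to 8.31 when 1 library was left out, the highest without vector control library 3, which held both vector control reads. Below the filter, CYP17A1 had 14 counts in the antisense-labelled group, all in library 3, and 5 in the vector control, all in library 2. CYP19A1, aromatase, had 11 in the antisense-labelled group and 0 in the vector control. Of the retinoic acid hydroxylases, CYP26B1 overlapped at 0.437, 0.559 and 0.462 CPM in the antisense-labelled libraries, against 0.434, 0.637 and 0.349 CPM in the vector control (log2 fold change 0.04, SE 0.34). CYP26A1 had 26 counts in the antisense-labelled group and 8 in the vector control, and CYP26C1 had 2 in the antisense-labelled group and 0 in the vector control. CYP27C1 had 0 counts in the antisense-labelled group and 2 in the vector control.

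Electron partners differed among themselves. POR, which feeds P450s of the endoplasmic reticulum, stood at 166 ± 17.5 CPM in the antisense-labelled libraries and 189 ± 25.1 CPM in the vector control and did not pass (log2 fold change -0.19, SE 0.11). CYB5B, the cytochrome b5 of the mitochondrial outer membrane, rose, at 832 ± 17.8 CPM in the antisense-labelled libraries and 416 ± 17.3 CPM in the vector control (log2 fold change 1.00, SE 0.06; edgeR quasi-likelihood test, Benjamini-Hochberg adjustment, adjusted p = 2.19e-06). CYB5A, the b5 of the endoplasmic reticulum, also rose (0.54, SE 0.08). In the mitochondrial chain ferredoxin (FDX1) rose by 0.30 (SE 0.07) and its reductase FDXR fell by 0.57 on the log2 scale (SE 0.10), while FDX1L (-0.11) did not pass. The haem-binding partners PGRMC1 (0.21, a call lost in 3 of 6 fits without 1 library) and PGRMC2 (0.40) rose, and CYB5R1 (-0.10) did not pass. CYB5R3 had 148, 141 and 129 CPM in the antisense-labelled libraries, against 71.4, 179 and 207 CPM in the vector control, where library 2 was low. It did not pass (-0.13, SE 0.31), but fell without vector control library 2 (-0.47; edgeR quasi-likelihood test, Benjamini-Hochberg adjustment, adjusted p = 0.00658). In all, 5 of 10 tested partners were higher and 1 lower, and over all tested genes 27.7% were higher and 27.3% lower. Of 17 genes of haem synthesis and breakdown 2 were higher, ALAS1, the first enzyme of haem synthesis (0.68), and HMOX2, a haem oxygenase (0.71), and 7 were lower, including the biliverdin reductase BLVRA (-2.77), the porphyrin transporter ABCB6 (-1.25) and PPOX, a late enzyme of haem synthesis (-0.71).

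Receptors that switch on CYP genes did not all move one way. AHR stood at 146 ± 8.03 CPM in the antisense-labelled libraries and 87.4 ± 12.7 CPM in the vector control (log2 fold change 0.74, SE 0.11; edgeR quasi-likelihood test, Benjamini-Hochberg adjustment, adjusted p = 0.000412). Its partner ARNT, named after its values were seen, was lower (-0.88). NR1I2, the gene of PXR, and NR1I3, that of CAR, rose from low levels: NR1I2 stood at 0.376 ± 0.113 CPM in the antisense-labelled libraries and 0.0705 ± 0.0221 CPM in the vector control, and NR1I3 had log2 fold change 2.35 (SE 0.43). Both lay under the filter's level in every vector control library and above it in every antisense-labelled library, so as tested genes they had to differ in level. HNF4A, the liver and gut factor behind many CYP promoters, did not pass at 426 CPM in the antisense-labelled libraries and 389 CPM in the vector control (0.13; edgeR quasi-likelihood test, Benjamini-Hochberg adjustment, adjusted p = 0.145), while its relative HNF4G (3.26), NR2F1 (3.30) and the corepressor NR0B2 (3.03) rose and HLF, a circadian-regulated factor, fell by 4.596. Of 36 tested receptors and liver factors 13 were higher and 10 lower, with a median log2 fold change of 0.00, against 0.01 over all tested genes. Of all tested genes 27.7% were higher and 27.3% lower. Like NR1I2 and NR1I3, NR1H4 is among the 13 and reached the filter's level in the antisense-labelled libraries only.

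**Figure D5:**
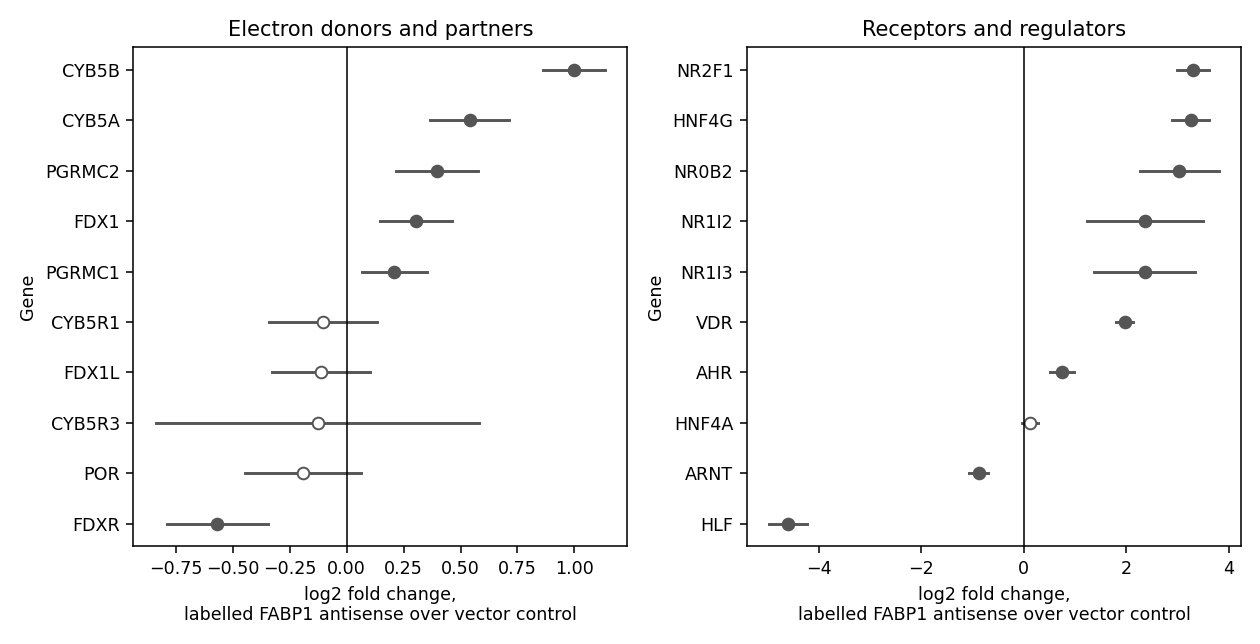
Log2 fold change, libraries labelled FABP1 antisense over vector control, with 95% intervals, for the electron partners of P450s (left) and for receptors and regulators of CYP genes (right, 10 genes named in the text); filled points passed the test. CYB5B at 1.00 leads the partners, and VDR at 1.96 is higher while ARNT at -0.88 is lower.

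Other targets of these receptors went both ways, as did all tested genes, of which 27.7% were higher and 27.3% lower. Each count in this paragraph stands beside those shares. In the AHR list 3 of 11 tested genes were higher, among them the quinone reductase NQO1 (0.78) and the amino acid carrier SLC7A5 (0.61), and 3 were lower, including TGFBI (-0.88), the glucuronosyltransferase UGT1A6 (-0.74) and the glutathione transferase GSTA1 (-0.54). In the list of PXR and CAR targets 3 of 11 were higher, among them the efflux pump ABCG2 (1.96), and 2 were lower, the efflux pump ABCB1 (-1.31) and GSTA1. Of 21 tested genes of retinoic acid handling 6 were higher, including the receptor RARG (1.08), and 9 lower, including the retinoic acid carrier CRABP2 (-2.96), the retinol importer STRA6 (-1.38) and DHRS3 (-0.85). BCO1, among the 6 higher, reached the filter's level in the antisense-labelled libraries only and so had to differ in level. Of 9 tested eicosanoid genes 2 were lower, EPHX1 (-1.04) and TBXAS1, and 5 were higher, among them leukotriene A4 hydrolase LTA4H (0.68), cyclooxygenase PTGS2 (0.55, a call lost in 5 of 6 fits without 1 library) and EPHX2 (0.38), which hydrolyses P450-made epoxides. ALOX15 and PLA2G4A, also among the 5 higher, reached the filter's level in the antisense-labelled libraries only. TBXAS1 reached it in the vector control only, so as tested genes ALOX15, PLA2G4A and TBXAS1 had to differ in level. Of 21 steroid enzymes 9 were higher, including AKR1C1 (2.07), HSD17B11 (1.13) and SULT1E1 (0.69), and 5 lower, including HSD3B1 (-1.03). The 3 P450 genes left out by the symbol rule differed among themselves: CYP51A1 did not pass edgeR's test at 360 ± 19.3 CPM in the antisense-labelled libraries and 321 ± 14.4 CPM in the vector control (0.17, SE 0.07). TBXAS1, thromboxane synthase, had 0 counts in the antisense-labelled group and 55 in the vector control, at least 18.4-fold lower, and PTGIS, prostacyclin synthase, had 25 in the antisense-labelled group and 0 in the vector control.

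By gene order (RefSeq, GRCh38.p14, without coordinates), the 10 nearest tested non-CYP genes on either side of each CYP gene or cluster were set beside it. Around the CYP2C cluster on chromosome 10 their median log2 fold change was 0.28, with flanking HELLS at 0.14 and PDLIM1 at -0.79. Around the CYP3A cluster it was 0.07 (ZSCAN25 0.08, TRIM4 0.22). Around the CYP4F cluster the median was 0.01, but of the flanking genes WIZ was at 0.25 and UCA1 higher at 2.49. Around CYP2J2 it was -0.36. CYP24A1 had neighbours with a median of -0.15, and the nearest on one side, BCAS1, was at 6.26. For CYP27A1 the neighbours' median was -0.31 with WNT6 at -6.75, for CYP2D6 -0.43 and for CYP20A1 -0.08. Of 20 neighbours each, 10 were lower and 0 higher for CYP2D6, 13 and 2 for CYP27A1, and 8 and 3 for CYP20A1. For CYP2J2 11 were lower and 5 higher, and for CYP27B1 2 were lower and 11 higher. Over all tested genes 27.3% were lower and 27.7% higher. For CYP2U1 and CYP4V2, which fell, the neighbours' medians were 0.25 and 0.24, the second over 12 genes because CYP4V2 lies near a chromosome end.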

How the data were processed

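Values were the raw, whole-number read counts deposited by the authors, per the file headers. TRIzol extraction and TruSeq Stranded mRNA libraries are given in the labels. Software named, per the submitters' processing notes, was StringTie 1.3.4d, Bowtie2 2.3.4.1, HISAT2 2.1.0, Trimmomatic 0.38 and bcl2fastq, with build GRCh37 and without roles or order. The 12 other per-library columns were not used. Columns could be matched to groups only.

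All 14640 genes passing filterByExpr were fitted with edgeR 4.0.16 (R 4.3.3; TMM scaling, quasi-likelihood test, two-sided) and p-values adjusted over all of them by Benjamini-Hochberg, threshold 0.05. SE is the absolute log2 fold change over the square root of F. CPM use TMM library sizes. Folds against 0 counts are bounds at 3 counts over the group, and these floors and the interval of the CYP11A1 count ratio cover counting error only, while intervals of log2 fold changes come from the fit and include the spread between libraries. The biological coefficient of variation was 11.8%. Transcript lengths and shared 50-base stretches came from GENCODE transcripts, and start windows from RefSeq (GRCh38.p14), which held 38 of the 54 genes.

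Members and lists were chosen with earlier results of these data known. Tested CYP genes, of which 1 is not reported here, every electron partner, fixed receptors and up to 4 further genes per list with the largest called differences at a mean log2 CPM of at least 1 are named. Alternatives covered DESeq2 1.42.0, scaling, filters, omission of each library, and header numbers as a block. The test was tried on simulated counts.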

Additional observations from a re-analysis of the deposited data

How the results depend on the processing

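Counts of CYP genes past the threshold kept to 10 to 14 higher and 4 to 6 lower over all alternatives run, and of the 17 called genes 16 kept their call in every fit that tested them, CYP2U1 being the exception. CYP11A1, CYP24A1 and CYP3A4 were not tested at a filter of at least 1 CPM in 3 libraries, which gave 10 higher and 4 lower. Leaving out 1 library gave 12 to 13 higher and 4 to 5 lower CYP genes, and 3510 to 4108 higher and 3449 to 3951 lower genes in all; FABP1 ran from 0.05 to 0.27 on the log2 scale and never passed. The header numbers do not pair the libraries (correlations of deviations 0.11, -0.28 and -0.25), no library correlated best with its own number, and with the replicate block 12 CYP genes were higher and 5 lower, with 3355 higher and 3306 lower genes in all, and FABP1 was at 0.17. Signs turned for 4 genes that did not pass: CYP26B1 (-0.13 to 0.30 with 1 library left out, through -0.02 and -0.06), CYP27B1 (-0.038 to 0.056), CYB5R3 (-0.47 to 0.16, and 0.00074 without vector control library 3) and CYP3A7 (-8.23 to 2.02, and -1.53 with the replicate block); for CYP3A7 reads lay in 1 of its rows per library. CYP2D6 passed without antisense-labelled library 4 (-2.82, adjusted p = 0.0292 by edgeR). With no filter on low counts CYP4F2 and CYP2C18 were also higher and CYP4B1 lower. Depth limits the 17 genes under the filter, whose differences mostly could not be tested.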
